A study of Mus musculus with 12 samples.

Results

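The markers of resident cardiac macrophages were followed in the hearts of 2 mouse models that express NOTCH2NLC-(GGC)98, the gene with an expanded run of 98 GGC repeats. The 9 genes were taken by symbol from the gene-level count table: Timd4, Mertk, Cd163, Mrc1, Folr2, Lyve1, Adgre1, Csf1r and Maf. Each was found in 1 row, so that 9 of the 25171 rows of the table are described, and all 9 had enough counts to be tested in every comparison.

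RNA was sequenced from 12 hearts, 3 in each of 4 groups. All mice carried the conditional transgene, in which a stop cassette between loxP sites at Rosa26 precedes NOTCH2NLC-(GGC)98, so that expression needs Cre. EIIa-tg mice had also received E2a-Cre, which acts in all tissues, and were sampled at postnatal day 30, and EIIa-ctl mice were littermates without Cre. Replicates 2 and 3 of EIIa-tg have genotype entries that read e3a and e4a in place of E2a and were grouped by their titles. Myh6-tg mice were labelled as carrying Myh6-creERT2, a driver that acts in cardiomyocytes after tamoxifen. They were given 3 tamoxifen injections of 75 mg/kg, every other day from day 60, and were sampled at postnatal day 90. The Myh6-ctl mice were labelled with the same genotype, were injected with corn oil and were also sampled at day 90. By these labels, Cre was directed to cardiomyocytes in the Myh6 model and was not restricted to a cell type in the EIIa model, but the Esr1 reads given below do not show the driver in Myh6-tg hearts.

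Resident macrophages of the heart descend in part from cells that settle before birth and renew themselves in place. They take up dying cells and cell debris, which they bind through receptors for phosphatidylserine such as TIM-4, the product of Timd4, and through MerTK, a receptor tyrosine kinase that binds Gas6 and protein S. They also carry scavenger and uptake receptors: CD163 clears haemoglobin bound to haptoglobin, the mannose receptor (Mrc1) takes up glycoproteins, folate receptor beta (Folr2) binds folate, and LYVE-1 binds hyaluronan and is shared with lymphatic endothelium. Adgre1 encodes the F4/80 antigen of mouse macrophages, Csf1r the receptor for Csf1 and Il34 on which macrophages depend, and Maf a transcription factor. TIM-4, LYVE-1 and folate receptor beta are commonly used to tell resident from monocyte-derived macrophages, whereas Adgre1, Csf1r and Mertk are carried by macrophages of either origin.

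Among the 9 genes, upstream sequences were at hand for 5 (RefSeq promoters, GRCm38.p6), and 3 of them are shown because Timd4 and Folr2 fell in Myh6-tg hearts while Cd163 had the largest positive point estimate there. Each is the 250 bases before the annotated transcript start, on the strand of the gene. Capitals mark GGAAGT, the core bound by ETS factors such as PU.1, and TGCTGA, a half-site of MAF factors, searched on both strands and so also written as ACTTCC and TCAGCA. Timd4 (GRCm38, chr11:46810800-46844332, plus strand) is shown for chr11:46810549-46810798, Folr2 (chr7:101839988-101857194, minus strand) for chr7:101857191-101857440, the first of its 2 listed starts, and Cd163 (chr6:124304656-124330527, plus strand) for chr6:124304401-124304650.
Timd4: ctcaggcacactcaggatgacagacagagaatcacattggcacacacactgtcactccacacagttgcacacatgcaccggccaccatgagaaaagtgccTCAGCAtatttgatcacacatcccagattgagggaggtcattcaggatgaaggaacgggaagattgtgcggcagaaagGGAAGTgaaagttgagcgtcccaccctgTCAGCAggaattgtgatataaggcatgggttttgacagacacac
Folr2: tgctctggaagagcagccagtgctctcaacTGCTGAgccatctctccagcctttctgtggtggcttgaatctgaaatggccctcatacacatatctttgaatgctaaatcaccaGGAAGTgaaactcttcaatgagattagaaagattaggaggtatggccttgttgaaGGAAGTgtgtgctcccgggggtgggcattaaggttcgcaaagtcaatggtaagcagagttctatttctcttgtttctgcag
Cd163: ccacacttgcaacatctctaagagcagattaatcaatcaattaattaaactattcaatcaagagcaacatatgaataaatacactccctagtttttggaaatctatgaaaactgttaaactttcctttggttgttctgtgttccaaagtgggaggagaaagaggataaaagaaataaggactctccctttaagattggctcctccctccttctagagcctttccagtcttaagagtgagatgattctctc
The Timd4 window held 1 ETS core and 2 MAF half-sites, the Folr2 window 2 ETS cores and 1 MAF half-site, and the Cd163 window neither. The window of the second Folr2 start held 0 and 1, that of Mrc1 1 and 0, and that of Mertk 0 and 0. Of all 32851 promoter windows of this length, 19.7% held the ETS core and 16.1% the MAF half-site. A match of letters is not a bound site, and binding was not measured.

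Each heart gave between 38343106 and 50969834 counts, and 3 counts, the floor used here, corresponded to 0.0568 to 0.0815 CPM, the counts of a gene per unit of library size. Levels are given as CPM after TMM scaling over the 12 hearts unless stated otherwise. The tissue labels held in the data: the 6 cardiomyocyte markers summed to 8193 to 37809 CPM, and 5 of 6 neuron markers were at 0.285 CPM or less, Slc17a7 being at 7.81 to 40.7 CPM, although the extraction protocol speaks of brain. Mitochondrial genes took 31.8 to 38.3% of the counts in Myh6-ctl but 15.5 to 18.6% in Myh6-tg hearts, and 34.2 to 36.7% in EIIa-ctl against 28.5 to 32.3% in EIIa-tg hearts. Replicate 1 of every group held 4224 to 7307 counts from Y-linked genes and all other hearts 0 to 2. Esr1, which encodes the oestrogen receptor of which creERT2 carries the hormone-binding part, was at 1030 to 2330 CPM in Myh6-ctl but at 1.00 to 2.52 in Myh6-tg and 0.408 to 1.23 in the EIIa groups, which was not what identical labels of the 2 Myh6 groups would give. Hearts were kept in their labelled groups, and the source of the Esr1 reads was not tested. Sqstm1, which encodes p62, was at 352 to 399 CPM in EIIa-ctl, 785 to 1257 in EIIa-tg, 446 to 941 in Myh6-ctl and 1781 to 2006 in Myh6-tg hearts.

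Among the hearts, 2 stood apart in macrophage genes and are named in many of the results below. Replicate 1 of Myh6-tg held 58.1 CPM of Chil3 and 12.98 CPM of Arg1, genes of recruited or alternatively activated macrophages, while the other 11 hearts held at most 1.76 CPM of Chil3 and 0.616 of Arg1. It also had the highest Cd163, Mrc1, Mertk and Csf1r of all 12 hearts, and it alone of its group held Y-linked counts (7307), so that sex cannot be told apart from the heart. Replicate 3 of Myh6-ctl had the highest Lyve1, Folr2, Cd163, Mrc1, Mertk, Adgre1, Csf1r and Maf of its group, and its Mmrn1, a marker of lymphatic endothelium, was at 43.0 CPM against 7.98 and 8.44 in the other 2 controls.

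The markers differed in abundance per transcript length. In EIIa-ctl hearts, the deposited FPKM averaged 14.2 for Folr2, 12.4 for Csf1r, 7.09 for Lyve1, 5.93 for Mrc1, 4.57 for Adgre1, 3.33 for Maf, 2.87 for Cd163, 1.56 for Mertk and 1.44 for Timd4. Folr2 (25.7 FPKM) and Csf1r (18.6) also led in Myh6-ctl hearts. In Myh6-tg hearts, the order changed: Csf1r averaged 34.2 FPKM, Mrc1 24.1, Cd163 21.4 and Lyve1 20.0, whereas Folr2 was at 12.6 and Timd4 at 0.154. Cd163 was at 34.3 FPKM in replicate 1 and at 15.2 and 14.7 in replicates 2 and 3, below Lyve1 there (21.5 and 20.2). Timd4 was the least abundant marker in every group, with 49 to 235 counts in 9 hearts, and with 2, 24 and 15 counts in the Myh6-tg hearts. The plot of each marker by heart shows the values on which the comparisons rest.

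**Figure D1:**
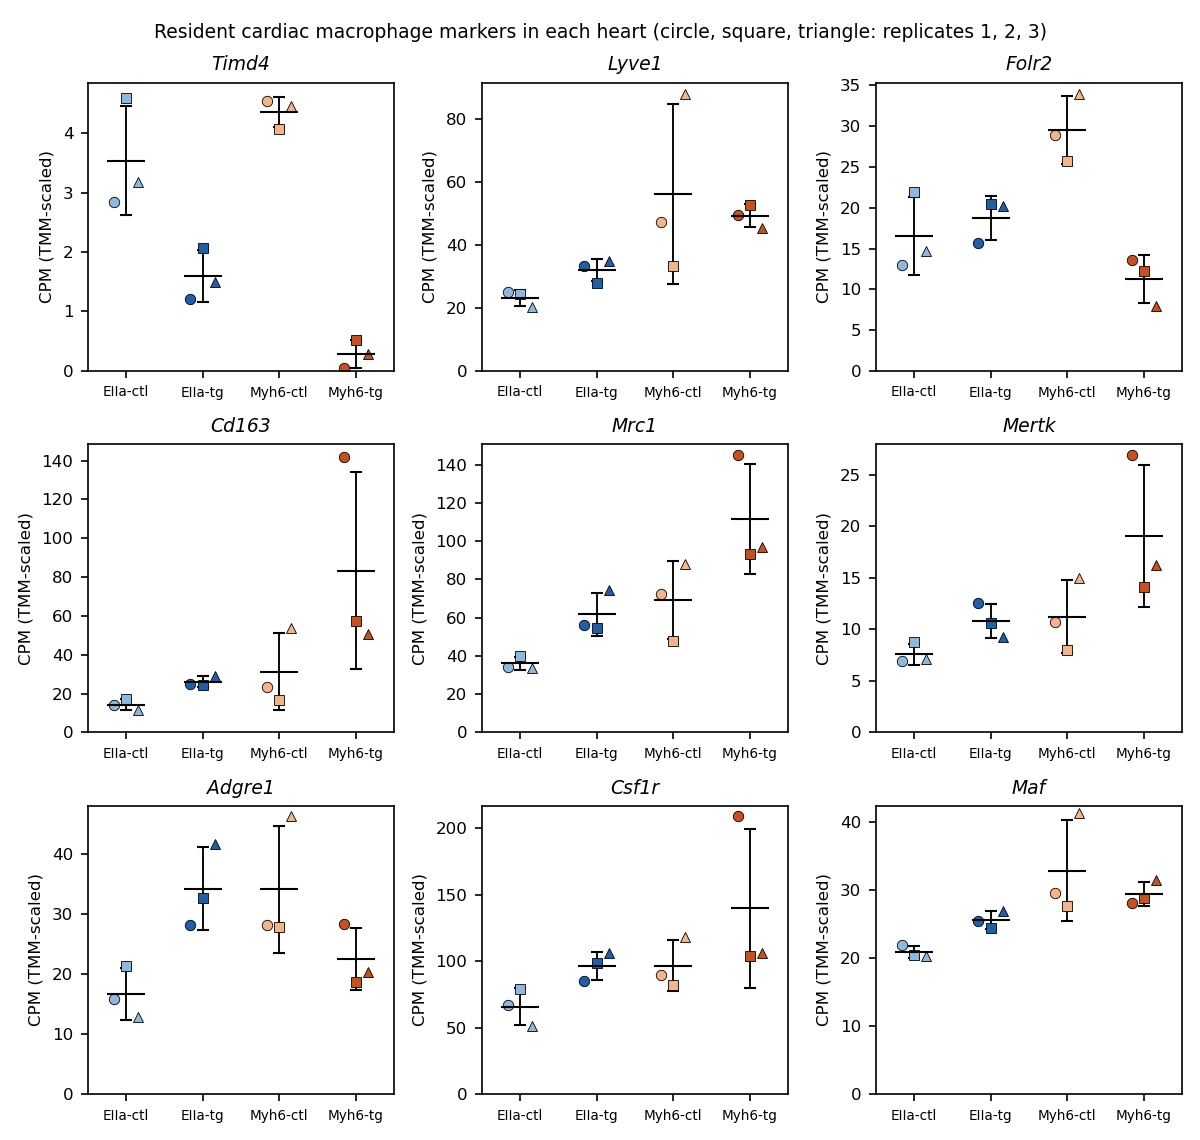
Level of each of the 9 markers (CPM after TMM scaling, linear axis from 0) in the 12 hearts, by group. Points are single hearts with a shape for each replicate number, the horizontal line is the group mean and the bar is the SD (n = 3). Timd4 lay at 0.0427 to 0.521 CPM in Myh6-tg hearts, below all 9 other hearts, and the Myh6-tg values of Folr2 lay below those of Myh6-ctl, while Cd163, Mrc1, Mertk and Csf1r were highest in replicate 1 of Myh6-tg.

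The first comparison asked how the markers differed between EIIa-tg and EIIa-ctl hearts. In EIIa-tg hearts, 5 of the 9 markers rose, namely Cd163, Mrc1, Lyve1, Adgre1 and Csf1r, and Timd4 fell. Adgre1 rose 2.05-fold and Cd163 1.82-fold, while Timd4 fell to 0.450 of the control level. Folr2, Mertk and Maf did not pass the test. A gene passed the test at an adjusted p under 0.05 by the quasi-likelihood test of edgeR with Benjamini-Hochberg adjustment over all 14908 genes tested, of which 8.65% were higher and 8.3% lower. The median log2 fold change of the 9 markers was 0.51, and that of all genes 0.02. No marker reached an adjusted p under 0.01 with a change of at least 1 on the log2 scale, the threshold for a differentially expressed gene (DEG). By this test 0 of all genes did (0.0%), although 5204 had an unadjusted p under 0.05, and by DESeq2 836 genes were DEGs, Adgre1 among them.

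These calls depended on single hearts. The number of markers past the test was 0 when EIIa-ctl replicate 1, EIIa-ctl replicate 3, EIIa-tg replicate 1 or EIIa-tg replicate 3 was left out, 4 without EIIa-ctl replicate 2 (losing Lyve1 and Timd4) and 5 without EIIa-tg replicate 2 (losing Csf1r), and the number among all genes, 2527, ranged from 0 to 4079. The direction of the 9 changes was the same in each of these fits. On the log2(FPKM + 1) scale, 2237 genes were higher and 634 lower against 1289 and 1238 by counts, and the median of all genes moved to 0.13. On that scale limma called 7 markers: Mertk (0.46, adjusted p = 0.039) and Maf (0.44, adjusted p = 0.040) were also higher, and Timd4 did not pass (-0.49, adjusted p = 0.055).

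Of the receptors for dying cells, Timd4 was at 2.85, 4.59 and 3.18 CPM in EIIa-ctl hearts (replicates 1 to 3) and at 1.21, 2.07 and 1.49 CPM in EIIa-tg hearts. All 3 transgenic values were below all 3 control values, and the log2 fold change was -1.15 ± 0.31 (SE; edgeR adjusted p = 0.040). Mertk was at 6.90, 8.78 and 7.12 CPM in EIIa-ctl and at 12.6, 10.6 and 9.26 CPM in EIIa-tg hearts. The groups did not overlap, but its log2 difference of 0.51 ± 0.17 did not pass the test (adjusted p = 0.068).

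Of the scavenger and uptake receptors, Cd163 was at 14.1, 17.2 and 11.7 CPM in EIIa-ctl and at 24.8, 24.2 and 29.3 CPM in EIIa-tg hearts (log2 fold change 0.86 ± 0.16, adjusted p = 0.018). Mrc1 (chr2:14229392-14332057) was at 34.4, 40.0 and 33.7 CPM in EIIa-ctl and at 56.0, 54.6 and 74.6 CPM in EIIa-tg hearts (0.77 ± 0.14, adjusted p = 0.018). Lyve1 (chr7:110850607-110863239) was at 25.0, 24.5 and 20.2 CPM in EIIa-ctl and at 33.2, 28.1 and 34.9 CPM in EIIa-tg hearts (0.46 ± 0.13, adjusted p = 0.043). For these 3 receptors every transgenic heart was above every control heart. Folr2, by contrast, overlapped between the groups, with 13.05, 22.0 and 14.6 CPM in EIIa-ctl and 15.7, 20.4 and 20.3 CPM in EIIa-tg hearts (0.18 ± 0.21, adjusted p = 0.577).

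Of the receptors of macrophages in general, Adgre1 was at 15.8, 21.4 and 12.7 CPM in EIIa-ctl and at 28.2, 32.7 and 41.7 CPM in EIIa-tg hearts, the largest log2 increase of the 9 genes at 1.04 ± 0.21 (adjusted p = 0.022). Csf1r was at 66.8, 79.0 and 51.2 CPM in EIIa-ctl and at 85.2, 98.3 and 105.8 CPM in EIIa-tg hearts (0.55 ± 0.16, adjusted p = 0.049). Neither gene overlapped between the groups. The transcription factor Maf was at 21.9, 20.5 and 20.3 CPM in EIIa-ctl and at 25.4, 24.4 and 26.9 CPM in EIIa-tg hearts, a difference of 0.29 ± 0.10 that did not pass the test (adjusted p = 0.077). In RNA of whole hearts, a gain or loss of cells of a type cannot be told apart from more or less RNA per cell.

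The second comparison was that of Myh6-tg and Myh6-ctl hearts. Tamoxifen against oil and the Esr1 reads also separate these groups, and transgene expression cannot be told apart from them. Here Timd4 and Folr2 fell, to 0.0654 and 0.382 of the control level, and none of the 9 markers rose. Among the other 7, Cd163, Mrc1, Mertk and Csf1r had higher and Adgre1, Lyve1 and Maf lower point estimates, and none passed the test. Of the 15298 genes tested, 8.96% were higher and 9.38% lower. The median log2 fold change of the markers was -0.16, and that of all genes 0.03. An unadjusted p under 0.05 was found for 5 of the 9 genes and for 5210 of all 15298. DESeq2 called 3 markers, Timd4, Folr2 and Cd163, where it called 1817 genes higher and 2053 lower of 17711. No marker was a DEG by edgeR, against 3.97% of all genes (608, or 969 with the replicate number as a block), and the number of all genes past the test, 2805, ranged from 798 to 5049 over the alternatives. DESeq2 had Timd4 and Folr2 as DEGs, among 2135 DEGs of 17711 genes. The main fit did not pair the hearts, and with the replicate number as a block Timd4 and Folr2 were again the markers past the test.

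Timd4 was at 4.55, 4.06 and 4.46 CPM in Myh6-ctl hearts and at 0.0427, 0.521 and 0.284 CPM in Myh6-tg hearts. The groups were far apart, with means of 4.36 ± 0.256 and 0.282 ± 0.239 CPM (SD, n = 3), and the log2 fold change was -3.93 ± 0.72 (SE; edgeR adjusted p = 0.012). The 2 counts in Myh6-tg replicate 1 lay below the floor of 3 counts and had an exact 95% Poisson interval of 0.242 to 7.22 counts. The 157 counts in Myh6-ctl replicate 2, the fewest of the controls, had one of 133 to 184. Such intervals cover counting error only. Without replicate 1 of Myh6-tg the log2 fold change was -3.44 (adjusted p = 0.002), and without replicate 1 of Myh6-ctl the adjusted p was 0.052. Mertk was at 10.7, 7.97 and 15.0 CPM in Myh6-ctl and at 26.9, 14.1 and 16.3 CPM in Myh6-tg hearts. The groups overlapped, and the log2 difference was 0.76 ± 0.32 (adjusted p = 0.136), or 0.43 without Myh6-tg replicate 1.

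Folr2 was at 28.9, 25.7 and 34.0 CPM in Myh6-ctl and at 13.6, 12.3 and 7.91 CPM in Myh6-tg hearts. All transgenic values were below all control values, and the log2 fold change was -1.39 ± 0.24 (adjusted p = 0.011), with adjusted p between 0.006 and 0.043 when each heart was left out in turn. Its exons share 975 of 1546 bases with the antisense gene Gm10602, and reads of the 2 strands cannot be told apart unless strand was kept, which the sources used here do not state. Cd163 went the other way in its point estimate, with 23.4, 16.4 and 53.7 CPM in Myh6-ctl and 141.8, 57.2 and 50.9 CPM in Myh6-tg hearts. The groups overlapped through Myh6-ctl replicate 3, and the log2 difference of 1.42 ± 0.53 did not pass the test (adjusted p = 0.105). It was 2.05 without that control (adjusted p = 0.054) and 0.79 without Myh6-tg replicate 1 (adjusted p = 0.242).

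Mrc1 was at 72.3, 47.6 and 87.9 CPM in Myh6-ctl and at 145.0, 93.2 and 96.7 CPM in Myh6-tg hearts. The values did not overlap, but the log2 difference of 0.69 ± 0.28 did not pass the test (adjusted p = 0.126). Replicate 1 of Myh6-tg was the highest, and over the alternatives the difference ranged from 0.45 to 1.10. Lyve1 was at 47.2, 33.3 and 88.0 CPM in Myh6-ctl and at 49.5, 52.8 and 45.5 CPM in Myh6-tg hearts, so that the transgenic values lay inside the range of the controls (-0.19 ± 0.33, adjusted p = 0.733). The sign of this difference turned without Myh6-ctl replicate 3, to 0.28, and on the log2(FPKM + 1) scale, to 0.30. Lymphatic endothelium also expresses Lyve1, and the 6 lymphatic markers summed to 96.9 to 206.7 CPM in Myh6-ctl and 80.9 to 119.1 CPM in Myh6-tg hearts. Mmrn1 and Reln were highest of the controls in replicate 3, at 43.0 and 19.6 CPM, the heart with the highest Lyve1, and their part in the Lyve1 level was not tested.

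Adgre1 was at 28.0, 27.9 and 46.2 CPM in Myh6-ctl and at 28.3, 18.6 and 20.4 CPM in Myh6-tg hearts (-0.60 ± 0.26, adjusted p = 0.152). Csf1r was at 89.6, 81.7 and 118.1 CPM in Myh6-ctl and at 208.9, 104.2 and 106.3 CPM in Myh6-tg hearts (0.53 ± 0.31, adjusted p = 0.264). Both overlapped between the groups, and the Csf1r difference was 0.12 without Myh6-tg replicate 1. The antisense neighbour Hmgxb3, which shares 873 of the 5774 exonic bases of Csf1r, had 303 to 760 counts per heart against 1884 to 9787 for Csf1r. Maf was at 29.6, 27.7 and 41.3 CPM in Myh6-ctl and at 28.1, 28.8 and 31.4 CPM in Myh6-tg hearts (-0.16 ± 0.20, adjusted p = 0.620), and its sign also turned on the FPKM scale (0.34) and, to 0.03, without Myh6-ctl replicate 3.

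On the log2(FPKM + 1) scale the median of all genes was 0.27 in this comparison, with 3234 genes higher and 951 lower against 1370 and 1435 by counts. Cd163 (1.65, limma adjusted p = 0.035) and Mrc1 (1.03, adjusted p = 0.031) then passed as higher, and Timd4 (-1.28, adjusted p = 0.002) and Folr2 (-0.96, adjusted p = 0.022) again as lower. With the mitochondrial genes removed before scaling, the same 2 genes as in the count test passed, Timd4 and Folr2.

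**Figure D2:**
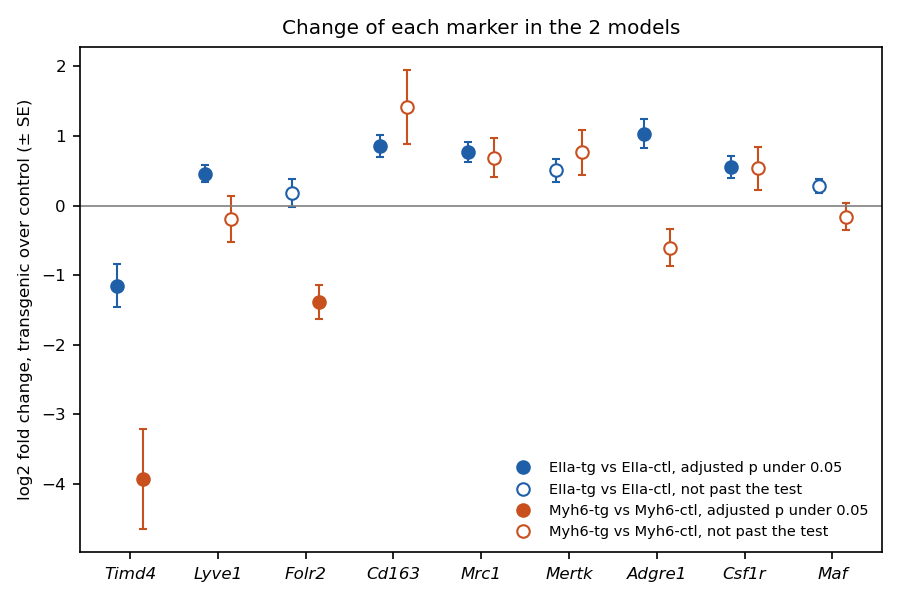
Log2 fold change of each marker, transgenic over control, in the EIIa (blue) and Myh6 (orange) models, with the SE of the fit as bars; filled points passed the test at an adjusted p under 0.05. Timd4 fell in both models, by 1.15 and by 3.93, whereas Folr2 (0.18 and -1.39) and Adgre1 (1.04 and -0.60) stood on opposite sides of 0.

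Whether the markers changed differently in the 2 models was tested as a difference of the log2 fold changes in all 12 hearts. The change of Folr2 was lower in the Myh6 than in the EIIa model by 1.57 ± 0.34 (SE; edgeR adjusted p = 0.024) and that of Adgre1 by 1.64 ± 0.37 (adjusted p = 0.029). These 2 of 9 markers passed as lower and 0 as higher, against 2.27% and 1.65% of the 15929 genes tested, and 0 were DEGs, against 0.622%. DESeq2 called 3, Folr2, Adgre1 and Timd4, all of them DEGs. By DESeq2 591 genes were higher and 804 lower of 16360, with 616 DEGs. Adgre1 had risen in the EIIa model, whereas Folr2 had fallen in the Myh6 model. For Timd4, the difference of -2.79 ± 0.74 did not pass (adjusted p = 0.061), but did in 5 of 22 alternatives, among them without Myh6-tg replicate 1 (adjusted p = 0.013) and by DESeq2 (adjusted p = 0.001). For Cd163, Mrc1, Mertk, Csf1r, Lyve1 and Maf the differences lay between -0.65 and 0.55, with adjusted p from 0.28 to 0.990. A p of this size does not show that these genes changed alike. Both calls were sensitive: with the replicate number as a block Adgre1 had an adjusted p of 0.062 and Folr2 of 0.040, and neither passed without EIIa-ctl replicate 1, EIIa-ctl replicate 3, EIIa-tg replicate 2 or EIIa-tg replicate 3. Age, driver and tamoxifen differ between the models along with the cells in which Cre acts, and these cannot be told apart.

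The controls of the 2 models were compared as well, which sets 30-day-old hearts without Cre against 90-day-old hearts of oil-injected mice labelled with Myh6-creERT2, so that age, line and injection cannot be told apart. All 9 markers had higher means in Myh6-ctl, and none passed the test in edgeR (0 of 9, against 0.02% of 14990 genes higher and 0.0133% lower, and 0 DEGs against 0.0334%). An unadjusted p under 0.05 was found for 7 markers and for 1700 of the 14990 genes. DESeq2 called 5 markers as higher, Lyve1, Folr2, Mrc1, Adgre1 and Maf, where it called 292 of 16285 genes higher and 136 lower. The largest point estimates were those of Lyve1 (1.28 ± 0.32, adjusted p = 0.179), Cd163 (1.12 ± 0.39, adjusted p = 0.331) and Adgre1 (1.03 ± 0.26, adjusted p = 0.181). The smallest was that of Timd4 (0.30 ± 0.26, adjusted p = 0.712), for which the control groups overlapped. Without Myh6-ctl replicate 2 Mrc1 passed with an adjusted p of 0.032.

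Across all 4 groups, neighbours in the order of means often overlapped. For Timd4 the order was Myh6-tg, EIIa-tg, EIIa-ctl and Myh6-ctl, and of the neighbours in this order the 2 control groups overlapped. For Lyve1 and Maf it was EIIa-ctl, EIIa-tg, Myh6-tg and Myh6-ctl, and of the neighbours the 2 Myh6 groups overlapped, while the wide range of Lyve1 in Myh6-ctl, 33.3 to 88.0 CPM, also reached that of EIIa-tg. For Cd163, Mrc1, Mertk and Csf1r it was EIIa-ctl, EIIa-tg, Myh6-ctl and Myh6-tg, with EIIa-tg and Myh6-ctl overlapping in each, and the 2 Myh6 groups also in each but Mrc1. Folr2 was separate from its neighbour in Myh6-ctl alone, at 29.5 ± 4.17 CPM against 18.8 ± 2.69 in EIIa-tg (SD, n = 3 each), and for Adgre1 all neighbouring groups overlapped.

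A ratio of counts within a heart needs no scaling between hearts, and 5 resident markers were therefore set against Csf1r. Relative to Csf1r, Timd4 and Folr2 were lower and Cd163 was higher in Myh6-tg hearts, with no overlap between the groups. Timd4 counts were 5.08, 4.98 and 3.78% of those of Csf1r in Myh6-ctl and 0.0204, 0.50 and 0.267% in Myh6-tg hearts. This made a difference of mean log2 ratios of -4.90, and -3.61 without Myh6-tg replicate 1. Folr2 counts were 32.3, 31.5 and 28.8% of those of Csf1r in Myh6-ctl and 6.52, 11.8 and 7.44% in Myh6-tg hearts (-1.89), and Cd163 counts were 26.1, 20.1 and 45.5% against 67.9, 54.9 and 47.9% (0.97). For each, the exact permutation test gave p = 0.1, two-sided, the smallest that 3 against 3 hearts allow, and p = 0.167 after adjustment over the 5 ratios. Lyve1 (-0.55, exact p = 0.4) and Mrc1 (0.23, exact p = 0.3) overlapped.

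In the EIIa model, Timd4 was again lower relative to Csf1r, at 4.26, 5.80 and 6.21% in EIIa-ctl and 1.42, 2.10 and 1.41% in EIIa-tg hearts (log2 difference -1.72, exact p = 0.1, adjusted p = 0.25). Cd163 was higher without overlap (0.31, exact p = 0.1), while Folr2 (-0.36, exact p = 0.2), Mrc1 (0.19, exact p = 0.3) and Lyve1 (-0.11, exact p = 0.6) overlapped. With the mean of Csf1r, Adgre1 and Mertk as the reference, each of the 10 differences had the same sign.

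**Figure D3:**
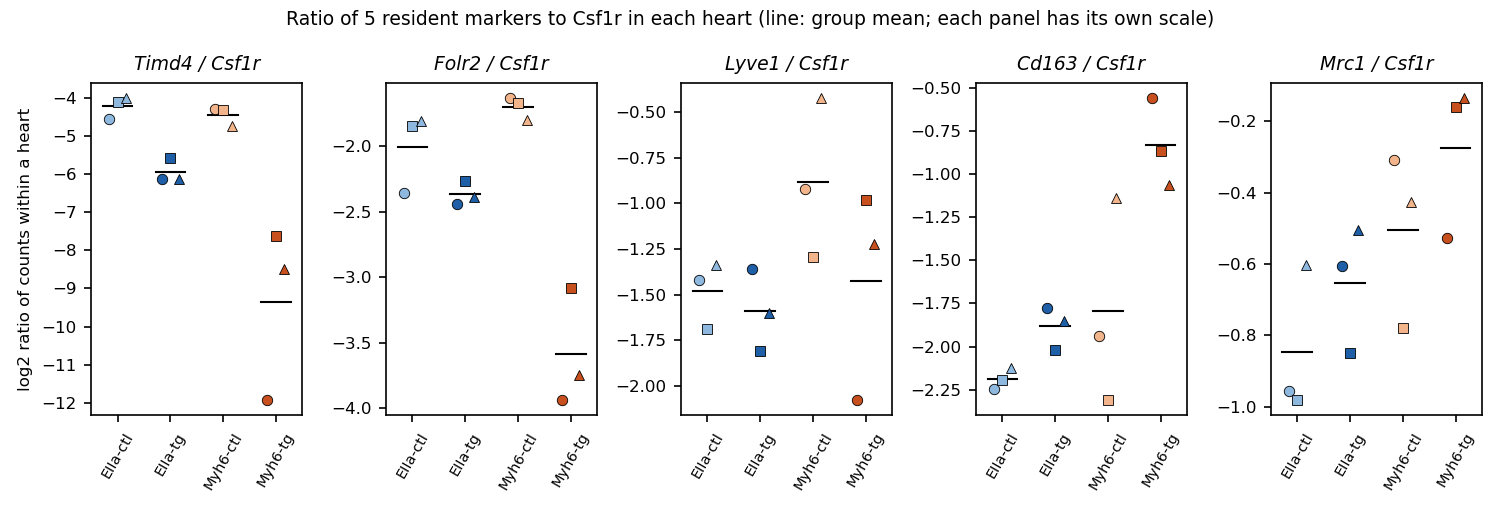
Log2 ratio of the counts of 5 resident markers to those of Csf1r in each heart, by group, with the group mean as a line and a scale of its own in each panel. The Timd4 ratio of all 3 Myh6-tg hearts, and of all 3 EIIa-tg hearts, lay below that of their controls, and the Folr2 ratio did so in the Myh6 model.

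Other genes known from resident macrophages were counted from a list of 15. In Myh6-tg hearts, 2 of the 13 tested fell and 0 rose, where 9.38% of all genes were lower and 8.96% higher. The edgeR p before adjustment was under 0.05 for 4 of the 13 and for 5210 of all 15298 genes, a similar share. The median log2 fold change was -0.24 against 0.03 for all genes. Mgl2, a lectin receptor, was at 33.9, 14.6 and 22.4 CPM in Myh6-ctl and at 1.09, 2.62 and 1.93 CPM in Myh6-tg hearts (-3.65 ± 0.43, edgeR adjusted p = 0.004). Cbr2, a carbonyl reductase, was at 35.6, 39.3 and 56.5 CPM in Myh6-ctl and at 10.2, 15.7 and 13.2 CPM in Myh6-tg hearts (-1.75 ± 0.25, adjusted p = 0.006). Both were DEGs, both passed without any 1 of the 6 hearts, and both differed between the models (Mgl2 by -3.78, adjusted p = 0.002, and Cbr2 by -2.28, adjusted p = 0.004). Vsig4, a complement receptor, had 5.38, 3.00 and 5.14 CPM in Myh6-ctl and 22.5, 9.41 and 7.47 in Myh6-tg hearts, highest in replicate 1. It did not pass (1.54, adjusted p = 0.051), but had an adjusted p of 0.030 with the replicate number as a block.

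In EIIa-tg hearts, 6 of the 12 genes tested from this list rose and 0 fell, against 8.65% and 8.3% of all genes, with a median of 0.59. Among them were F13a1, a clotting factor (0.76 ± 0.13, adjusted p = 0.017), Vsig4 (2.29 ± 0.44, adjusted p = 0.020), Pf4, a chemokine (0.84 ± 0.17, adjusted p = 0.022), Igf1, a growth factor (0.83 ± 0.21, adjusted p = 0.036), and Slc40a1, an iron exporter (0.65 ± 0.18, adjusted p = 0.043). Mgl2 was at 14.8, 18.1 and 14.0 CPM in EIIa-ctl and at 17.0, 19.9 and 14.3 CPM in EIIa-tg hearts. Without 1 heart, between 0 and 7 of the list rose.

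Genes of macrophages and myeloid cells in general were broadly higher in EIIa-tg hearts: 14 of 16 rose and 0 fell, against 8.65% and 8.3% of all genes, with a median log2 fold change of 0.90. Cd14, a co-receptor for lipopolysaccharide (1.32 ± 0.16, adjusted p = 0.013), Cd68, a lysosomal glycoprotein (1.59 ± 0.26, adjusted p = 0.017), Lyz2, a lysozyme (1.09 ± 0.19, adjusted p = 0.017), and Laptm5 (0.89 ± 0.16, adjusted p = 0.018) had the smallest p. The summed level of the list was 496 to 768 CPM in EIIa-ctl and 1104 to 1459 CPM in EIIa-tg hearts. In Myh6-tg hearts the median was 0.63, but 0 of 16 rose and 1 fell, Aif1 (-1.89 ± 0.42, adjusted p = 0.021), which codes for the microglia and macrophage marker IBA1. Ctss (1.79, adjusted p = 0.059), Cd14 (1.67, adjusted p = 0.076) and Cd68 (1.37, adjusted p = 0.098) did not pass. By DESeq2 3 of the 16 rose, in the fit of all 12 hearts 4, and on log2(FPKM + 1) 7, with a median of 0.90 there, and Aif1 fell in each. Of all genes, 1817 of 17711, 2475 of 15929 and 3234 of 15298 were higher in these 3 fits. Here the sum was 931 to 1531 CPM in Myh6-ctl and 1119 to 2796 CPM in Myh6-tg hearts, the highest being replicate 1. When 1 heart was left out, between 0 and 13 of the genes rose in the EIIa model and between 0 and 1 fell in the Myh6 model, where Aif1 was lost without Myh6-ctl replicate 1 or 3 or Myh6-tg replicate 2 or 3.

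Genes of monocytes and recruited macrophages rose in 4 of 11 cases in EIIa-tg hearts and in 2 of 10 in Myh6-tg hearts, and none fell. Of all genes, 8.65% and 8.96% were higher in the 2 models, and a count of 2 of 10 is not far from that share. The counts ranged from 0 to 6 and from 1 to 3 when each heart was left out in turn. In EIIa-tg hearts they were Plac8 (2.51 ± 0.41, adjusted p = 0.017), the integrin Itgax (2.27 ± 0.44, adjusted p = 0.021), Spp1, which encodes osteopontin (2.83 ± 0.61, adjusted p = 0.025), and Chil3 (3.11 ± 0.81, adjusted p = 0.037). In Myh6-tg hearts they were Ace (2.24 ± 0.24, adjusted p = 0.002), which encodes the angiotensin-converting enzyme and is also expressed by endothelium, and Spp1 (3.33 ± 0.87, adjusted p = 0.036), at 130.2 CPM in replicate 1 against 15.2 and 16.7 in the other 2 transgenic hearts. The log2 fold change of Spp1 was 1.57 without that heart, the adjusted p was 0.129, 0.110 and 0.088 without Myh6-ctl replicates 1, 2 and 3, and 0.076 with the replicate block. Chil3 did not pass in Myh6-tg hearts (4.66, adjusted p = 0.082), but did with the block (0.033). Its high level lay in replicate 1 of Myh6-tg alone, the heart set apart above. Ccr2, the chemokine receptor that marks monocyte-derived macrophages, was at 1.66, 5.58 and 3.04 CPM in EIIa-ctl and 7.32, 6.42 and 8.51 in EIIa-tg hearts, without overlap but not past the test (1.11, adjusted p = 0.077). It was at 7.44, 8.70 and 14.6 CPM in Myh6-ctl and 1.62, 8.33 and 7.34 in Myh6-tg hearts (-0.83, adjusted p = 0.340). Ace and Plac8 differed between the models (1.81, adjusted p = 0.009, and -3.43, adjusted p = 0.032).

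**Figure D4:**
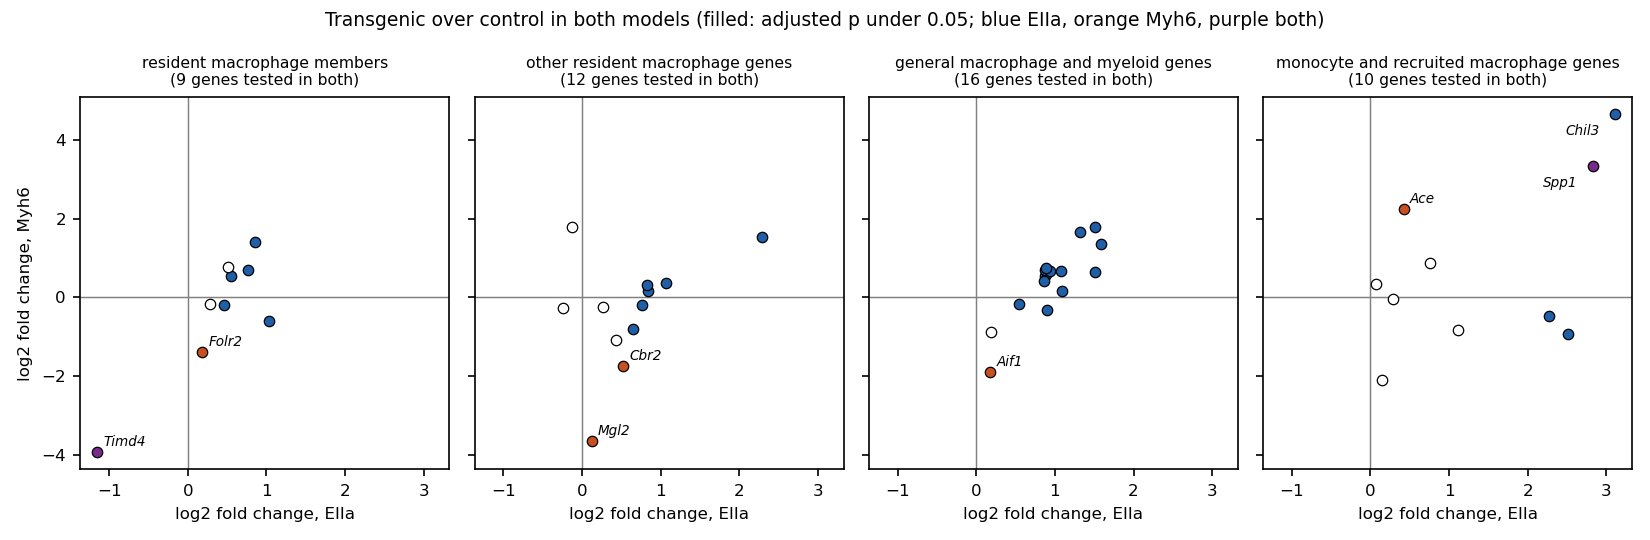
Log2 fold change, transgenic over control, in the EIIa model (x axis) and the Myh6 model (y axis) for the genes tested in both, in 4 panels for the 9 markers and 3 further lists. Points are single genes, filled where they passed the test (blue in EIIa, orange in Myh6, purple in both). In the panel of other resident macrophage genes, Mgl2 (0.12 and -3.65) and Cbr2 (0.53 and -1.75) lay low in the Myh6 model like Timd4 and Folr2, whereas 14 of the 16 general myeloid genes were filled for the EIIa model.

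Among the listed ligands and partners of some of the markers, 3 of 10 rose and 1 fell in EIIa-tg hearts, and 2 rose and 1 fell in Myh6-tg hearts. Over all genes 8.65% were higher and 8.3% lower in the former and 8.96% and 9.38% in the latter, so that 1 fall in 10 is near the share of all genes. Axl, a receptor of the same family as Mertk, rose in both models (0.69 ± 0.14, adjusted p = 0.022, and 0.95 ± 0.27, adjusted p = 0.045), and Tyro3, the remaining receptor of that family, rose in Myh6-tg hearts (1.29 ± 0.26, adjusted p = 0.016). Their ligand Gas6 was at 182 to 196 CPM in EIIa-ctl, 183 to 194 in EIIa-tg, 202 to 257 in Myh6-ctl and 296 to 388 in Myh6-tg hearts, with no overlap in the Myh6 model but an adjusted p of 0.079. Csf1, a ligand of Csf1r, fell in EIIa-tg hearts (-0.44 ± 0.12, adjusted p = 0.039), while Il34, its other ligand, did not pass in either model. Hp, the haptoglobin whose complex with haemoglobin Cd163 binds, rose in EIIa-tg hearts from 0.109 to 0.296 CPM in the controls to 1.11 to 5.23 CPM (3.84 ± 0.64, adjusted p = 0.017). In Myh6-tg hearts it did not pass (3.54, adjusted p = 0.059), but had an adjusted p of 0.002 with the replicate block. Of the hyaluronan synthases, whose product binds LYVE-1, Has1 rose in EIIa-tg hearts (2.57 ± 0.66, adjusted p = 0.037) and Has3 fell in Myh6-tg hearts (-2.20 ± 0.63, adjusted p = 0.048), both at levels of at most 3.87 CPM. When each heart was left out in turn, Has3 passed in none of the 6 Myh6 fits and Axl in 1 of them, that without Myh6-tg replicate 1, and Tyro3 was lost without Myh6-ctl replicate 1 or Myh6-tg replicate 3.

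Some markers of other cells also passed the test, and their part in the results was not tested. Over all genes, 8.65% were higher and 8.3% lower in the EIIa model, and 8.96% and 9.38% in the Myh6 model. A single call in a list of 6 or fewer markers is not far from these shares. In EIIa-tg hearts, 2 of 6 fibroblast markers rose, Dcn (0.94) and Pdgfra (0.47), 2 of 6 neutrophil markers rose, S100a9 (1.83) and Csf3r (1.19), and 3 of 6 endothelial markers fell, Cdh5 (-0.59), Kdr (-0.69) and Tie1 (-0.46). The lymphatic marker Prox1 (-0.76), the cardiomyocyte gene Ryr2 (-1.05) and the erythroid gene Alas2 (-2.08) also fell. In Myh6-tg hearts, Col1a1 (2.11) and Pdgfra (1.23) rose among 6 fibroblast markers and Pdpn (0.87) among 6 lymphatic markers. The cardiomyocyte genes Myl2 (-2.07), Tnni3 (-2.39) and Myh6 (-2.60) fell there, as did the dendritic cell gene Zbtb46 (-0.95), the B cell gene Ms4a1 (-4.31) and the erythroid gene Hbb-bs (-1.43). The neuron gene Slc17a7 rose in EIIa-tg (0.80) and fell in Myh6-tg hearts (-1.82). With the replicate block, Prox1 (-0.99, adjusted p = 0.023) and Ccl21a (-1.81, 0.009) also fell and Reln (1.41, 0.045) rose in Myh6-tg hearts, while Ms4a1 did not pass (0.071), and Pdgfra did not pass without Myh6-tg replicate 3 (0.054). No dendritic cell or B cell marker passed in the EIIa model, no endothelial or neutrophil marker passed in the Myh6 model, and no T cell marker passed in either. The T cell sum was 1.22 to 5.65 CPM over all hearts. The neutrophil sum was 3.16 to 3.23 CPM in EIIa-ctl and 6.99 to 8.68 in EIIa-tg hearts, and the dendritic cell sum was 25.1 to 32.9 CPM in Myh6-ctl and 17.5 to 20.1 in Myh6-tg hearts.

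For each marker, the genes with the most similar pattern over the 12 hearts were found among 13086 genes with a mean of at least 1 CPM, by the root mean square difference of standardised log2 CPM, where 0 is an identical pattern. Lyve1 and Maf were each other's nearest gene (0.293), followed by Adgrg6 and Tlr4. Cd163 was nearest to Ms4a4a (0.192), Man2a1 and Inpp5d, Mrc1 to Trf (0.181), Sh3bp2 and Itgam, Csf1r to Fermt3 (0.180), Tlr2 and Laptm5, and Mertk to Arid3a (0.25), Cd163 and Clca3a1. Folr2 was nearest to Themis2 (0.353), Pltp and Sema4a, and Adgre1 to Myo1f (0.384), to a locus without a gene name and to Itgax. The nearest to Timd4 were a further unnamed locus (0.179), Ppid and Rprd1a, genes expressed in most cells. The hearts share library size and mitochondrial share along with their groups, and these distances are a description.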

How the data were processed

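RNA of 12 mouse hearts was sequenced as 150 bp paired-end reads and mapped to GRCm38 with Hisat2 by the authors (the submitters' processing notes list HISAT2 2.0.4, StringTie 2.2.1 and DESeq2, and also name other builds). The deposited count table holds whole reads per gene without normalization, and the deposited FPKM table holds fragments normalised by the authors to transcript length and library size; the counting program and annotation are not given in the sources used here. Hearts were grouped by title, 3 mice per group. Counts were filtered with filterByExpr, scaled by TMM, fitted with glmQLFit and compared by the quasi-likelihood F-test of glmQLFTest (edgeR 4.0.16, R 4.3.3) in the 6 hearts of a comparison, or in all 12 for the difference between models. DESeq2 1.42.0 and limma 3.58.1, on log2(FPKM + 1) or log2(FPKM + 0.1), served as alternatives. Ratios used counts plus 0.5 and two-sided exact permutation tests (scipy 1.17.1). Positions came from GENCODE M21. Same-numbered Myh6 hearts deviated together (r = 0.285, 0.184 and 0.173), so that the numbers were taken to pair them, and those of the EIIa model did not (0.060, -0.070 and -0.050). The labels state no pairing, and same-numbered controls of the 2 models, which differ in age, had r = 0.124, 0.060 and -0.031. Replicate 1 alone of each group held Y-linked counts above 2, so that for this number sex cannot be told apart from pairing. The main fits did not use the Myh6 pairs. Calls and p-values of the Myh6 model are therefore unpaired unless the replicate block is named. With the block Timd4 and Folr2 remained the markers past the test, while some calls of other genes changed. All markers are reported per heart, and from each other list up to 4 genes with the smallest p, besides genes named for counts of 5 or fewer, for a ligand or for a heart that stood apart, which were chosen after their values were seen. A gene of these lists is not reported here. The markers and the 14 other lists were chosen with earlier results of these data known. On simulated counts with 200 changed genes, the test recovered 55.1% of changes of 1 and 76.5% of changes of 2 on the log2 scale in the EIIa design (14651 genes), and 9.78% and 66.7% in the Myh6 design (14975 genes). In the data 2527 and 2805 genes passed, more than were changed in the simulation. The adjusted threshold therefore differs, and these shares do not give the recovery in the data.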

Additional observations from a re-analysis of the deposited data

Results flagged for a closer look

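In 2 markers the change differed between the models by a test of the difference itself, with groups of 3 hearts too small for a test of single outlying hearts. For Folr2, the log2 fold change in the Myh6 model minus that in the EIIa model was -1.57 ± 0.34 (SE; edgeR adjusted p = 0.024), with lower values in 3 of 3 Myh6-tg hearts than in any Myh6-ctl heart and overlapping values in the EIIa model. For Adgre1, it was -1.64 ± 0.37 (edgeR adjusted p = 0.029), with higher values in 3 of 3 EIIa-tg hearts than in any EIIa-ctl heart and overlapping values in the Myh6 model. Both calls were lost without EIIa-ctl replicate 1 or 3 or EIIa-tg replicate 2 or 3 and on log2(FPKM + 1), and that of Adgre1 also with the replicate number as a block (adjusted p = 0.062) and without Myh6-tg replicate 2 or 3.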

How the results depend on the processing

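The number of markers past the test was 6 in the EIIa comparison, 2 in the Myh6 comparison, 0 between the controls and 2 for the difference between models, and ranged from 0 to 5, 1 to 2, 0 to 1 and 0 to 3 when each heart was left out in turn. For the EIIa comparison it was 0 in the fit of all 12 hearts, 0 with the replicate number as a block and 0 at the DEG threshold, but 7 on log2(FPKM + 1), where Timd4 was lost and Mertk and Maf passed, and 6 by DESeq2, with 1 DEG, Adgre1. The fit of all 12 hearts called 176 genes higher and 51 lower of 15929 there. On log2(FPKM + 1) it was 2237 and 634 of 14908, and by DESeq2 1800 and 1736 of 16866. For the Myh6 comparison it was 5 in the fit of all 12 hearts, 4 on log2(FPKM + 1), 5 on log2(FPKM + 0.1), 5 on log2(FPKM + 1) with FPKM of at least 0.5 in 3 hearts and 0 at the DEG threshold. Calls among all genes grew as well. The main fit called 1370 genes higher and 1435 lower of 15298, and the fit of all 12 hearts 2475 and 2574 of 15929. It was 3234 and 951 of 15298 on log2(FPKM + 1), 3304 and 969 on log2(FPKM + 0.1), and 3328 and 900 of 12947 with the FPKM filter. Between the controls, DESeq2 gave 5, where it called 292 genes higher and 136 lower of 16285. For the difference it was 1 with the replicate block, 0 on log2(FPKM + 1), 1 on log2(FPKM + 0.1), 1 with the FPKM filter, 0 at the DEG threshold and 3 by DESeq2, all 3 as DEGs. Here DESeq2 called 591 genes higher and 804 lower of 16360, with 616 DEGs. The block gave 208 and 297 of 15929 and log2(FPKM + 1) 510 and 239. The block changed no call of a marker between the controls or in the Myh6 comparison, where Timd4 (-4.20, adjusted p = 0.012) and Folr2 (-1.41, adjusted p = 0.014) passed. In the EIIa comparison, where same-numbered hearts did not deviate together, all 6 marker calls were lost with the block, and 1 gene of all passed. With a sex term taken from the Y-linked counts, 962 genes were higher and 718 lower of 14908 in the EIIa comparison. In the Myh6 comparison it was 1726 and 1860 of 15298, with 1249 DEGs. Folr2 passed in 17 of 17 alternatives of the Myh6 comparison and Timd4 in 16, the sex term among them. Of the 17 alternatives of the EIIa comparison, Cd163, Mrc1 and Adgre1 passed in 11, Lyve1 and Csf1r in 9 and Timd4 in 7. The cause of these shifts was not tested.

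Differences that turned sign did so from values near 0 or through 1 heart. In the Myh6 comparison Lyve1 went to 0.30 on log2(FPKM + 1), with and without the FPKM filter, and to 0.33 on log2(FPKM + 0.1), and Maf to 0.34 and 0.40. For the difference between models, Mrc1 went to 0.18 and 0.15 and Csf1r to 0.12 and 0.11 on these scales. With single hearts left out, Lyve1 ranged from -0.45 to 0.28 and Maf from -0.27 to 0.029 in the Myh6 comparison. The difference between models then ranged from -0.32 to 0.11 for Mrc1, -0.43 to 0.15 for Csf1r, -0.074 to 1.19 for Cd163 and -0.081 to 0.51 for Mertk. The EIIa ratio of Lyve1 to Csf1r ranged from -0.22 to 0.0027. Of the log2 fold changes of the markers, 216 with 1 heart left out kept direction and side of the threshold, 38 lost and 3 gained the call and 13 turned sign, and under other alternatives 326 kept both, 23 lost and 26 gained the call and 12 turned sign. With 3 hearts a group, markers not past the test in the Myh6 comparison cannot be taken as unchanged, and whether they were unchanged was not tested.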
